A study of Drosophila melanogaster with 46 samples.

Results

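CTCF binding sites were compared between larvae and adults of Drosophila melanogaster, from 1 deposited list of chromatin immunoprecipitation (ChIP-seq) peaks for each stage. All peaks of the larval and the adult wild-type CTCF lists on the arms 2L, 2R, 3L and 3R and chromosomes 4, X and Y were taken, and a peak was called shared when it overlapped a peak of the other stage by at least 1 bp. This gave 808 larval and 674 adult peaks, 1482 of the 14902 peaks in the 7 lists of the series. The study precipitated CTCF, Pita, Su(Hw) and CP190 from whole animals in 46 samples, in wild-type and mutant larvae and in wild-type adults. The mutant larvae are labelled CTCFdeltaCP, alone or with SuHwdelta114, PitadeltaCP1 or both. The larval CTCF group has 4 samples and the adult group has 2, all of strain y1w1118 and genotype dCTCFwt, with CTCF precipitated through an HA tag by a rabbit antibody against HA. Animals were kept at 25°C on standard medium, with no treatment given in the labels, and the protocol describes chromatin of third-instar larvae only, with no age given for the adults. The whole animal mixes many tissues, and the share of cells that carry CTCF at a site cannot be told apart from the strength of binding in each cell.

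CTCF is a C2H2 zinc finger protein that binds DNA at insulators, the elements that keep enhancers and silencers of one domain from acting on its neighbour. In flies it is best known from the boundaries between the regulatory domains of the Bithorax complex, the Hox genes that specify the segments of the posterior thorax and abdomen. Pita and Su(Hw) are other C2H2 proteins of fly insulators, and CP190 is a cofactor that such proteins recruit.

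Each list holds the authors' fold enrichment of every peak, which is linear and set against a control without a name. The larval values ran from 1.73 to 184 with a median of 7.95, and the adult values ran from 1.68 to 251 with a median of 12.5. Peaks are described by the rank of this fold within their own list, rank 1 being the highest, since folds of separate lists have no common scale. With 1 list per stage no value has a replicate error and no difference was tested. Intervals are exact Clopper-Pearson 95% intervals of a share, or Newcombe 95% intervals of a difference of shares, and cover counting error only. Read depth is unknown, and a site missing from a list may still carry signal below the limits of that list. Both lists carry an irreproducible discovery rate (IDR), which measures how well 2 input lists order the same peaks, and its largest value was 0.0098 in larvae and 0.01 in adults.

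The 2 stages had most of their CTCF sites in common. In larvae 561 of 808 peaks overlapped an adult peak, which is 69.4% (66.1% to 72.6%), and in adults 568 of 674 peaks overlapped a larval peak, which is 84.3% (81.3% to 86.9%). These shares are themselves the background for every class below. Merged over both stages there were 914 sites, of which 561 had peaks of both, 247 had a larval peak only and 106 had an adult peak only. The shares of the 2 lists depend on their lengths: with the larval list shortened to the length of the adult list by fold, they were 79.2% and 80.0%. The overlap rule itself decided little. The smallest overlap of a shared pair was 176 bp, only 8 of 247 larva-only peaks lay within 1 kb of an adult peak, and only 7 of 106 adult-only peaks lay within 1 kb of a larval peak. Just outside the rule, the nearest of these lay 216 bp from an adult peak and 294 bp from a larval peak. The median distance to the other stage was 42980 bp for larva-only and 36921.5 bp for adult-only peaks.

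The larva-only peaks were mostly the weak end of the larval list. Their median fold was 2.60 (2.17 to 3.63 from the lower to the upper quartile) and their median width was 428 bp. Shared larval peaks had a median fold of 24.5 (5.66 to 74.2) and a median width of 1084 bp. In the first quartile of larval ranks 200 of 202 peaks were shared, in the second 186, in the next 129 and in the last 46. In the 2 lower quartiles of the larval ranks lay 229 of the 247 larva-only peaks, or 92.7%. Between ranks 21 and 200 every larval peak had an adult partner.

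**Figure D1:**
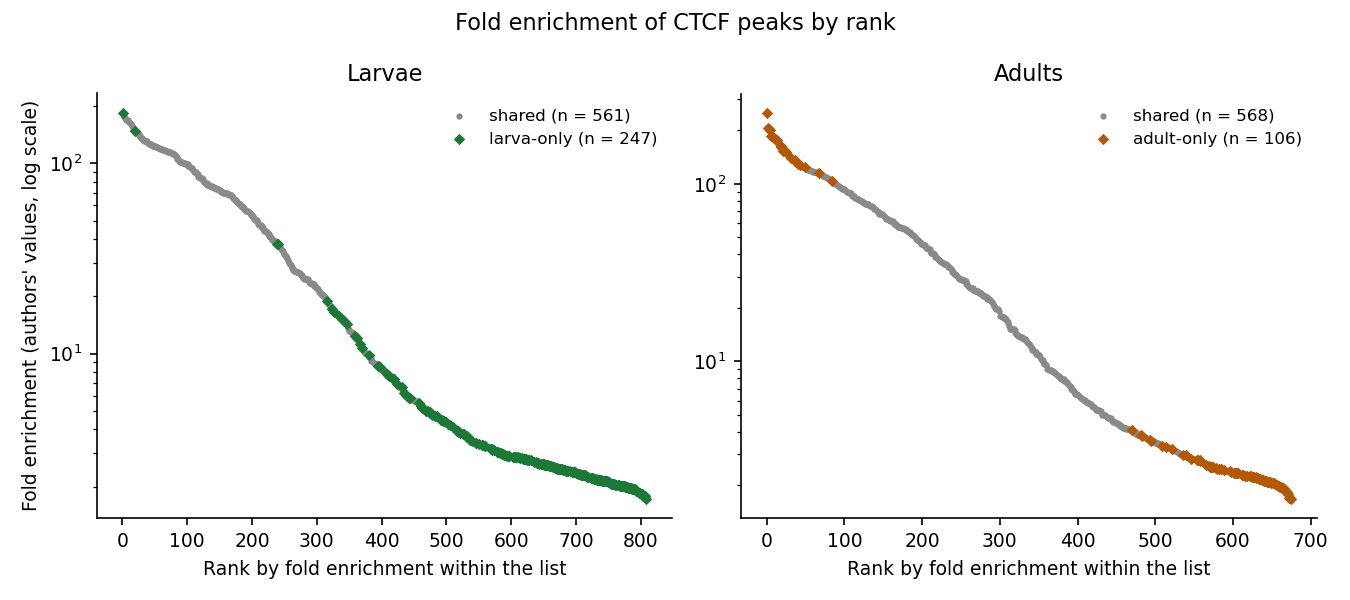
Fold enrichment of each CTCF peak (vertical, log axis) against its rank in its own list (horizontal), with larvae and adults in separate panels and shared and one-stage peaks in different colours. Larva-only peaks sit mostly at the weak end, with 18 in the upper 2 quartiles of rank, of which 2 are among the first 20. Adult-only peaks sit at both ends, with none between ranks 84 and 470.

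The adult-only peaks fell into 2 separate ranges of strength, one at each end of the adult list. There were 22 at ranks 1 to 84, all with a fold of at least 103, and 84 from rank 470 on, all with a fold of at most 4.07. At the 385 ranks between these there was none. Of the first 20 adult peaks only 9 overlapped a larval peak (45.0%), against 18 of the first 20 larval peaks. At adult ranks 21 to 60 the count was 31 of 40, at ranks 61 to 100 it was 38 of 40, and all 300 peaks at ranks 101 to 400 were shared. The last 74 adult peaks, from rank 601, had 19 shared among them (25.7%). Over all 106 adult-only peaks the median rank percentile, where 100 is the weakest, was 89.5. With both lists cut at their median −log10 q before ranking and sharing it was 9.20, so this median describes neither range.

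In adults the peaks of highest fold had IDR values near the largest in the list, and so did the weakest peaks. On the −log10 scale, where a higher value means better agreement of the inputs, the first 20 adult peaks had a median of 2.05 and the last 74, from rank 601, a median of 2.07. The first 20 larval peaks had a median of 2.38, and those from rank 601 on had 2.56. Shared peaks as a whole had a median of 2.16 in adults and 2.69 in larvae. The 22 strong adult-only peaks had a median of 2.10 (2.0 to 2.15), and the 62 shared peaks at ranks 1 to 84 had a median of 2.13 (2.01 to 2.17). The 2 ranges overlapped almost entirely. Whether a larval partner of these 22 had an IDR above those of the larval list was not tested.

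**Figure D2:**
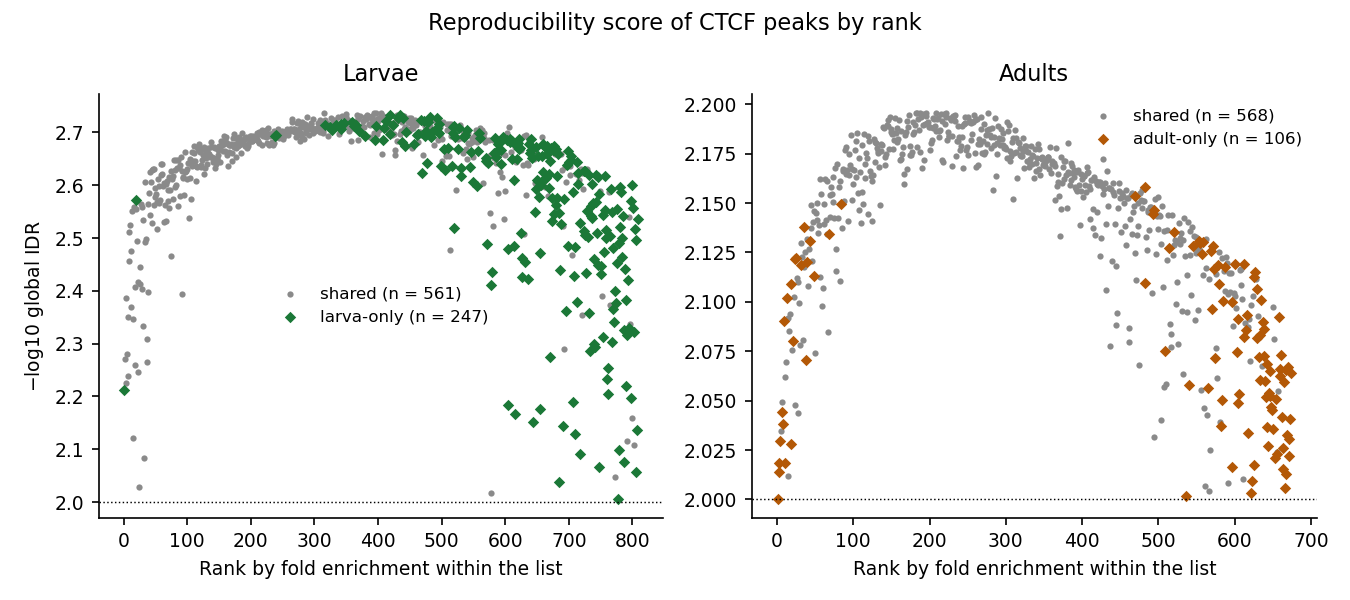
The deposited −log10 IDR of each CTCF peak (vertical) against its rank by fold (horizontal), larvae and adults in separate panels, with shared and one-stage peaks in different colours. Peaks at both ends of each list have lower values than those in the middle, with medians of 2.38 for the first 20 larval and 2.05 for the first 20 adult peaks.

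The highest peak of the adult list, at 3R:6759292-6760186 (build dm6) with a fold of 251, had no larval partner and covered an end of bcd, which encodes the maternal Bicoid protein that patterns the head and thorax of the embryo. The peak also overlapped a larval CP190 peak of fold 53.9 and an adult Pita peak of fold 10.7. The −log10 IDR of this CTCF peak was the lowest of the adult list, in which shared peaks had a median of 2.16. All 22 adult-only peaks at ranks 1 to 84 were below this median, as was the median of 2.13 for shared peaks at those ranks. Rank 4, at 3R:16969260-16970298 with a fold of 201, lay within Abd-B, the Hox gene of the posterior abdomen, 1938 bp from an end of the gene. It overlapped a larval CP190 peak of fold 54.5 and a larval Pita peak of fold 63.2. Larval CP190 and Pita thus had peaks at a place where the larval CTCF list had none.

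A peak of fold 182 at X:1952606-1953525 lay within Hr4, a nuclear receptor of the ecdysone response, and overlapped a larval Pita peak of fold 71.9. A peak of fold 130 at 3L:17595592-17597894 lay within Eip74EF, an ecdysone-induced ETS transcription factor, and overlapped peaks of all 5 other lists. A peak of fold 124 at 3R:21619051-21620122 lay at the ends of InR, the insulin receptor, and E2f1, a transcription factor of the cell cycle, and overlapped none of the 5.

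Uhg5, a host gene of small nucleolar RNAs, had a peak of fold 205 at rank 2 as an adult-only peak, with no peak of the other proteins. A peak of fold 204 at the ends of bor and tara overlapped Pita peaks of fold 11.8 in larvae and 65.1 in adults. Jupiter, a microtubule-associated protein, held a peak of fold 183, and Spn, the scaffold protein Spinophilin, held one of fold 161 on a larval Pita peak of fold 39.8. The peak of fold 176 between lncRNA:CR42657 and nej, the histone acetyltransferase CBP, overlapped Pita peaks of fold 32.3 in larvae and 52.6 in adults. A peak of fold 163 covered ends of htk and Pvf1, a ligand of the PDGF/VEGF family.

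SNF4Agamma, a subunit of the AMP-activated kinase, held a peak of fold 153 on a larval CP190 peak of fold 40.9. Indy, a citrate transporter, had one of fold 152 lying 1854 bp from its end. At mtSSB, the mitochondrial single-strand DNA-binding protein, a peak of fold 127 overlapped a CP190 peak of fold 62.0. The peak at Rip11 and wgn, a tumour necrosis factor receptor, had a fold of 137 and was on Su(Hw) peaks of fold 23.1 in larvae and 19.1 in adults. The rest of the 20 adult-only peaks at ranks 1 to 60 lay at MSAmiP (186), Aps (178), CG46311 (152), CG8303 (139) and CG31752 (133), with the fold in brackets.

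The corresponding larva-only peaks were far fewer. Among the first 60 larval ranks there were 2, and the next one, at CG7029 with a fold of 37.6, had rank 238 and was chosen after its value was seen. The highest peak of the larval list, at 2L:14093985-14096108 with a fold of 184, covered an end of nAChRalpha5, a subunit of the nicotinic acetylcholine receptor. It had no CP190 peak and an adult Pita peak of fold 2.70, and its −log10 IDR of 2.21 was below the median of 2.62 for larva-only peaks. At rank 20, with a fold of 147 at 3R:21407832-21408999, a peak covered ends of CheB93a and CheB93b, members of a chemosensory gene family, and overlapped a CP190 peak of fold 34.8.

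The shared sites were at nearly the same bases in both stages. The median distance between the larval and the adult summit was 8 bp (quartiles 3 to 15 bp), and 551 of the 561 pairs (98.2%) had summits within 50 bp of each other. The larval peak was the wider one in 510 pairs (90.9%), with a median ratio of widths of 1.55 (1.22 to 2.04). Read depth is unknown, and its part in this ratio was not tested. There were 7 larval peaks that each covered 2 adult peaks, the one at tun being 5438 bp wide, and no adult peak covered 2 larval ones.

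Strength was ordered much alike in both stages. The same quartile of the ranks held 355 of the 561 pairs in both lists (63.3%, 59.1% to 67.3%), and 555 pairs were in the same or an adjacent quartile. The percentile was the stronger one in larvae for 429 pairs and in adults for 132, in lists of unequal length of which the larval one holds more weak one-stage peaks. Of the 200 shared sites in the first larval quartile 141 were also in the first adult quartile. Ranked among the 561 shared sites alone, 184 of the 362 with a CP190 peak took a higher place in larvae (50.8%, 45.6% to 56.1%), as did 84 of the 199 without one (42.2%, 35.3% to 49.4%). These intervals overlap.

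**Figure D3:**
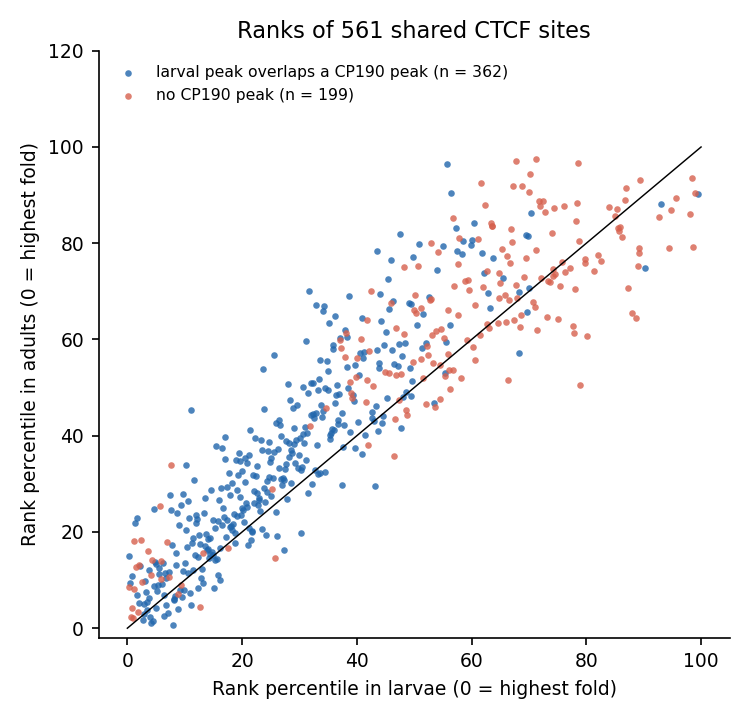
Rank percentile of each of the 561 shared CTCF sites in the larval list (horizontal) and in the adult list (vertical), 0 being the highest fold, with sites that overlap a larval CP190 peak in a different colour. The points run along the diagonal, more of them on the larval side (429) than on the adult side (132), and 555 of 561 pairs lie in the same or an adjacent quartile.

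The shared site with the smallest sum of ranks lay at 3R:6911147-6913225, within CG46458 and between genes of the Antennapedia complex, with a fold of 171 in larvae (rank 5) and 167 in adults (rank 16). The next, at X:3134144-3135802, covered an end of N, the Notch receptor, beside kirre, an adhesion protein of muscle fusion, with 168 in larvae and 174 in adults. A site between Tmc, a mechanosensory channel gene, and LanB2, the gamma chain of laminin, had 132 in larvae and 185 in adults. Sid, a stress-induced DNase, had 133 in larvae and 168 in adults. At tun, near an end of Zasp52, a protein of the muscle Z-disc, the values were 150 in larvae and 138 in adults.

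Other sites of the 10 with the smallest sum of ranks lay at CG14903 (147 in larvae, 176 in adults), lncRNA:CR45668 (168 and 143), tRNA:Val-CAC-1-1 (156 and 153) and CG43693 (143 and 158). All 10 were in the first quartile of both lists.

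Some shared sites stood at quite different places in the 2 lists. Toward the larval side the largest shift of rank was at galectin, a sugar-binding protein, with a fold of 5.66 in larvae (rank 450) and 2.07 in adults (rank 650). A site 24534 bp from Tollo, the Toll-8 receptor, had 30.6 in larvae and 3.95 in adults. The next 3 were at fd102C, a forkhead factor (13.1 and 3.09), scramb1, a phospholipid scramblase (9.17 and 2.79), and CG15306 (27.3 and 4.42). All 5 of these sites overlapped a larval CP190 peak.

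Toward the adult side the largest shift was within Amph, amphiphysin of the muscle T-tubules, with a fold of 2.69 in larvae (rank 637) and 12.1 in adults (rank 340). It was followed by lncRNA:CR46004 (2.27 in larvae and 4.97 in adults), SteXh:CG42398 (2.30 and 4.77), CG2224 beside the mitochondrial carrier aralar1 (2.63 and 6.03) and CG31145 (1.87 and 2.98). None of these 5 sites overlapped a CP190 peak. All 5 were in the last larval quartile, where 6.52% of shared peaks had CP190, and 4 of the 5 on the larval side were in the second, where 80.6% did. The 10 sites were chosen by their shift of rank, so their folds describe that choice.

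Larva-only sites carried CP190 less often than shared larval sites did, but they were also weaker. The CP190 list names no genotype, and mutant larvae gave 14 of the 18 CP190 samples, so its shares cannot be read as those of wild-type larvae. A larval CP190 peak lay on 362 of 561 shared larval peaks (64.5%) and on 121 of 247 larva-only peaks (49.0%), against 59.8% of all larval CTCF peaks, and the difference was −15.5 points (−22.8 to −8.14). At matched rank the order turned. In the last quartile of larval ranks CP190 lay on 3 of 46 shared peaks (6.52%) and on 74 of 156 larva-only peaks (47.4%), a difference of 40.9 points (27.5 to 49.8). In the quartile before it the shares were 26.4% and 45.2%. In the second quartile they were alike, 80.6% and 81.2%, and in the first they were 87.5% of shared and 1 of 2 larva-only peaks.

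Larval Pita was more frequent on larva-only than on shared larval peaks, and not at the weak end alone. A larval Pita peak lay on 117 of 561 shared larval peaks (20.9%) and on 81 of 247 larva-only peaks (32.8%), against 24.5% of all, and the difference was 11.9 points (5.35 to 18.8). The first quartile of larval ranks has only 2 larva-only peaks, of which 0 were on Pita. In the second quartile the shares were 23.7% of shared and 9 of 16 larva-only peaks (56.2%), and in the next 13.2% and 30.1%. The differences were 32.6 points (8.60 to 54.0) and 17.0 points (5.36 to 29.2). In the last quartile the shares were 2 of 46 (4.35%) and 50 of 156 (32.1%), a difference of 27.7 points (15.4 to 36.0). The Pita peaks under these 50 weak larva-only CTCF peaks were strong in their own list, with a median fold of 19.0 against 5.97 for the whole larval Pita list. This was not particular to larva-only peaks, since the 2 Pita-bound shared peaks of that quartile had a median Pita fold of 21.4. In the quartile before it the median was 20.5 for 17 shared and 11.9 for 22 larva-only peaks. Of the 81 larva-only CTCF peaks on larval Pita, 67 (82.7%, 72.7% to 90.2%) were also on an adult Pita peak. Among the shared larval CTCF peaks on Pita it was 107 of 117 (91.5%).

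Su(Hw) was found at 14.3% of shared larval and 9.72% of larva-only peaks, against 12.9% of all, and the interval of the difference, −8.95 to 0.537 points, includes 0. No peak of the other 5 lists was present at 28.2% of shared larval and 41.3% of larva-only peaks.

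Over all ranks, adult-only sites carried larval CP190 and the adult peaks of Pita and Su(Hw) less often than shared adult sites. Larval CP190 lay on 63.6% of shared adult peaks and on 26 of 106 adult-only peaks (24.5%), against 57.4% of all adult CTCF peaks, a difference of −39.0 points (−47.2 to −29.2). There is no CP190 list of adults, so stage and protein cannot be told apart here. The classes differed most at the strong end. At adult ranks 1 to 84, CP190 lay on 7 of 22 adult-only peaks (31.8%, 13.9% to 54.9%) and on 49 of 62 shared peaks (79.0%, 66.8% to 88.3%). In the last quartile of adult ranks the shares were alike, 24.1% and 25.6%. The limits of these 84 ranks were set after the gap in the list was seen.

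Adult Pita lay on 26.9% of shared adult peaks and on 17 of 106 adult-only peaks (16.0%), against 25.2% of all, a difference of −10.9 points (−17.8 to −2.03). With both lists cut at their median −log10 q before sharing was called, Pita was on 34.1% of shared and 37.9% (20.7% to 57.7%) of adult-only peaks. With 29 peaks called adult-only in that setting, no direction can be read from these shares. At adult ranks 1 to 84, adult Pita was on 9 of the 22 adult-only peaks (40.9%) and 33 of the 62 shared peaks (53.2%), and larval Pita on 10 (45.5%) and 22 (35.5%). Adult Su(Hw) was at 13.6% of shared and at 4 of 106 adult-only peaks (3.77%), against 12% of all. At adult ranks 1 to 84 it was on 3 of the 22 adult-only peaks (13.6%) and 9 of the 62 shared peaks (14.5%). In the last adult quartile the interval of the difference, −12.6 to 1.21 points, includes 0. Larval Su(Hw) lay on 13.0% of shared and 17.0% of adult-only peaks, and larval Pita on 19.9% and 17.9%, and the interval of each difference, −2.73 to 12.6 points and −9.03 to 6.96 points, includes 0. Some larval peak of CP190, Pita or Su(Hw) lay under 16 of the 22 strong adult-only peaks (72.7%) and under 58 of the 62 shared peaks at those ranks (93.5%). Over all adult-only peaks, 69 of 106 (65.1%) met no peak of any other list.

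**Figure D4:**
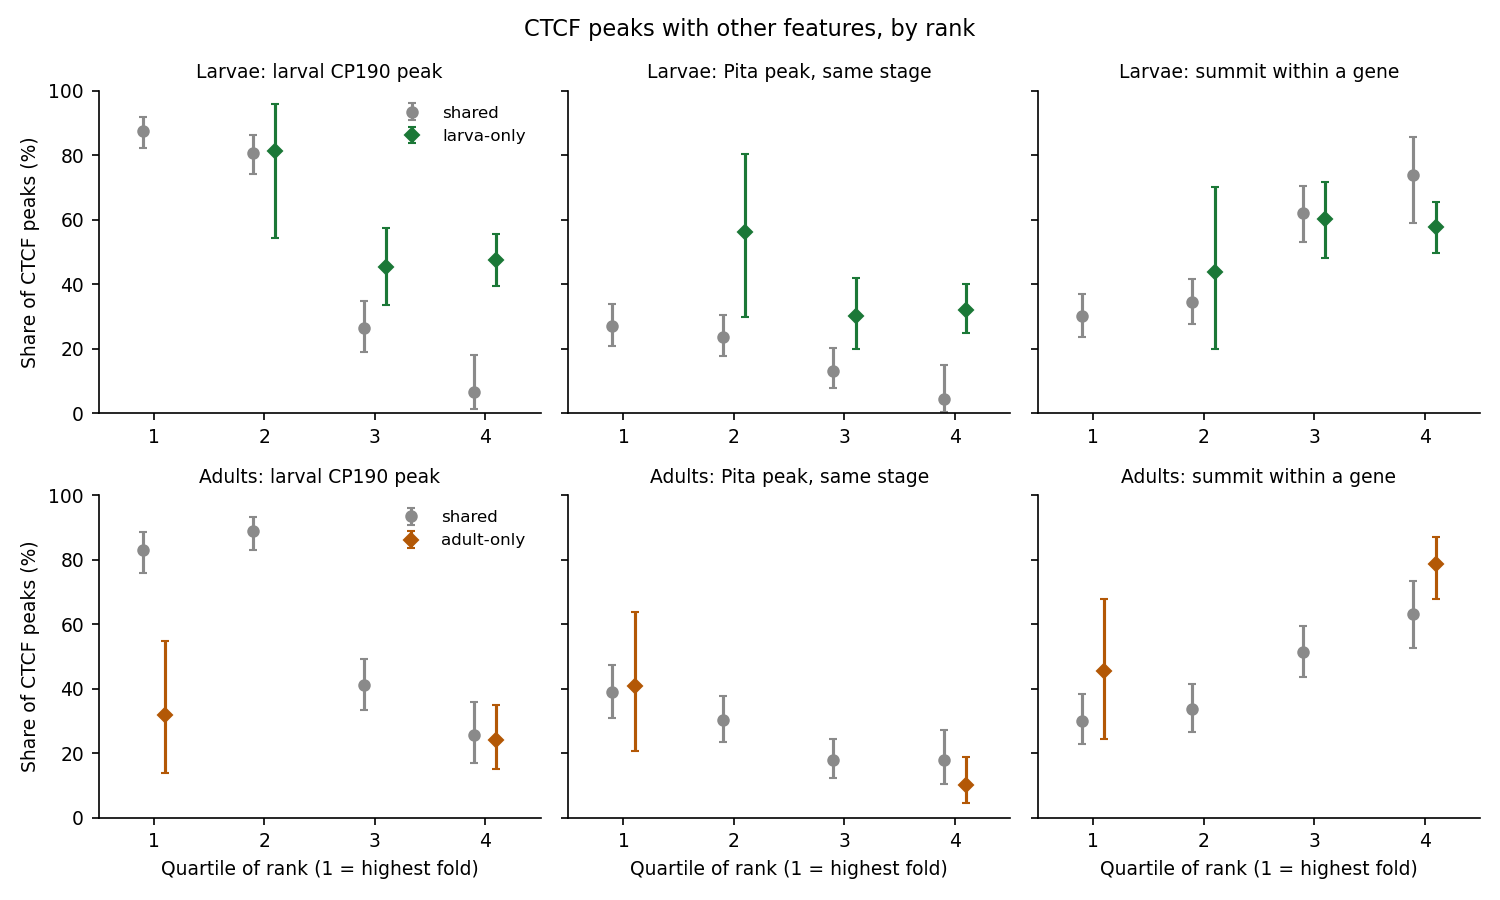
Share of CTCF peaks that overlap a larval CP190 peak or a Pita peak of the same stage, or have the summit within a gene, in percent (vertical), by quartile of rank within the list (horizontal), for shared and one-stage peaks of larvae and adults, with exact 95% intervals and classes under 15 peaks left out. In the last larval quartile CP190 is at 6.52% of shared and 47.4% of larva-only peaks, while in adults the classes part in the first quartile, at 82.9% of shared and 31.8% of adult-only peaks.

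In both stages the summit lay inside a gene at a larger share of one-stage than of shared peaks. An end of a gene was within 500 bp of 64.0% of shared larval and 53.8% of larva-only peaks, against 60.9% of all larval peaks, a difference of −10.1 points (−17.5 to −2.81). In adults it was 61.3% of shared and 51.9% of adult-only peaks, against 59.8% of all, and the interval of the difference, −19.6 to 0.750 points, includes 0. In the last quartile one-stage peaks had the larger share, 53.2% against 37.0% in larvae and 50.6% against 37.8% in adults. The intervals of these differences, −0.172 to 30.9 and −2.08 to 27.1 points, include 0. Distances run from the edges of a peak, and shared larval peaks were wider than larva-only ones (median 1084 against 428 bp). The summit lay within a gene for 42.4% of shared larval and 57.1% of larva-only peaks, against 46.9% of all, a difference of 14.7 points (7.18 to 21.9). For adults it was 42.6% of shared and 77 of 106 adult-only peaks (72.6%), against 47.3% of all, a difference of 30.0 points (20.0 to 38.6). In the last larval quartile the order was the other way, with 73.9% of shared and 57.7% of larva-only summits within a gene, a difference of −16.2 points (−29.3 to −0.197). In the last adult quartile it was 63.3% and 78.5%.

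The X chromosome had few sites found in adults alone. Of the 121 adult peaks on the X 113 had a larval partner (93.4%, 87.4% to 97.1%), against 79.3% to 83.2% on the 4 autosome arms. Of all adult peaks 18% were on the X, and of the 106 adult-only peaks 8 were (7.55%). In the last adult quartile the X held 20.0% of shared and 3.80% of adult-only peaks. With both lists cut at their median −log10 q before sharing was called, the shares on the X were 16.9% and 17.2% (5.85% to 35.8%). The second share rests on 29 peaks, so whether the difference is confined to weak peaks cannot be read from it. In larvae 69.3% of the X peaks were shared, and the X held 20.1% of shared and 20.2% of larva-only peaks, against 20.2% of all.

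The Bithorax complex, taken from 3R:16656623 to 16972236, held 12 larval and 9 adult peaks, of which 7 were shared. Of the shared ones 5 stood at similar ranks in both lists. At lncRNA:iab8, a noncoding RNA of the abdominal region, the fold was 23.7 in larvae (rank 288) and 23.5 in adults (rank 279). Within Abd-B there were 2, with 5.60 and 36.4 in larvae and 5.33 and 25.3 in adults. Within MSAmiP there were also 2, with 9.84 and 19.1 in larvae and 10.2 and 13.5 in adults.

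In the part of the complex at lncRNA:bxd and lncRNA:CR45750 the ranks were higher in larvae, as they were by percentile for 429 of all 561 shared sites. Within lncRNA:bxd, a noncoding RNA of the Ubx regulatory region, the fold was 25.7 in larvae (rank 277) and 4.46 in adults (rank 451). At lncRNA:CR45750 it was 118 in larvae (rank 62) and 35.2 in adults (rank 229), with Pita and Su(Hw) peaks of both stages at the site. Larva-only peaks lay near lncRNA:CR44945 with a fold of 37.5 and at 4 weaker places, with 2.77, 2.91, 2.96 and 2.22. The 2 adult-only peaks were the strongest adult peaks of the complex, 186 within MSAmiP and lncRNA:iab8 and 201 within Abd-B, and both overlapped a CP190 peak of fold above 50.

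**Figure D5:**
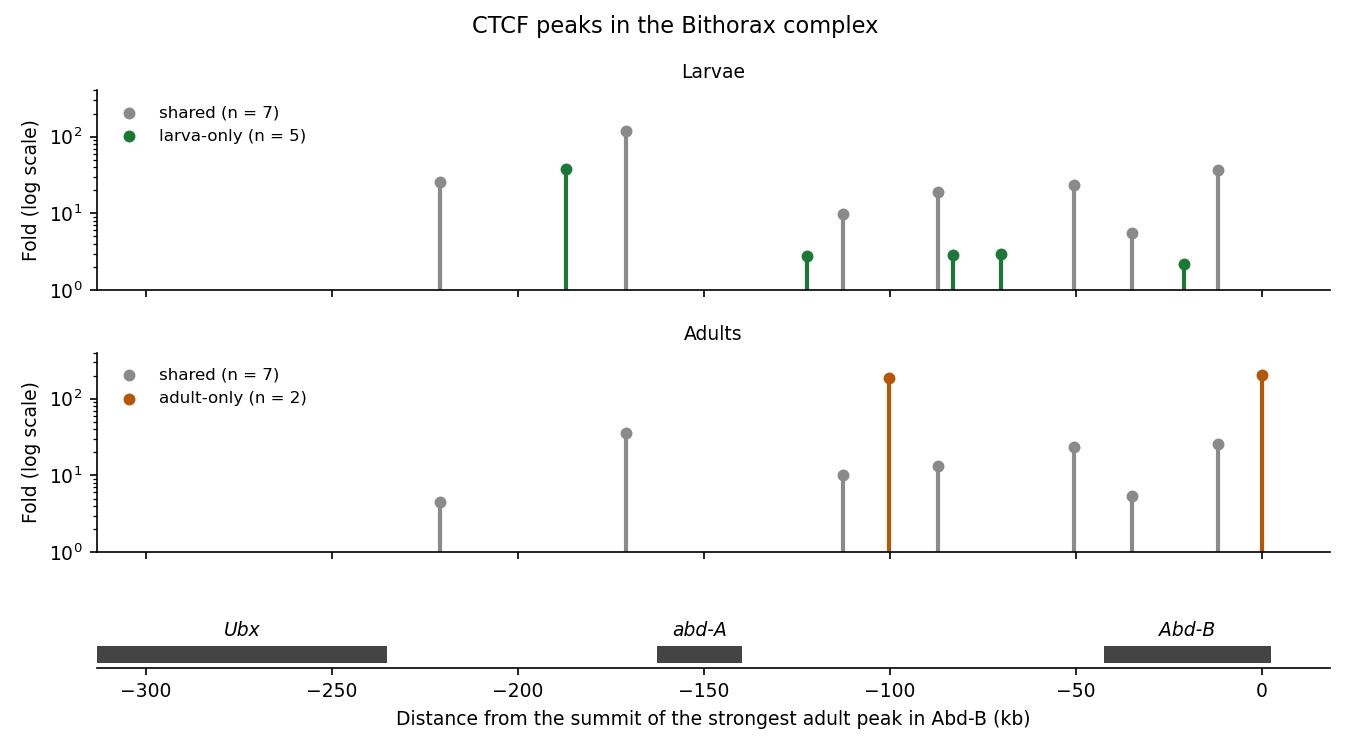
CTCF peaks of the Bithorax complex by fold enrichment (vertical, log axis) and distance in kb from the summit of the strongest adult peak (horizontal), with larvae and adults in separate panels and shared and one-stage peaks in different colours. The 7 shared sites appear in both panels, and the 2 highest adult peaks have no larval counterpart.

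The Antennapedia complex, taken from 3R:6661427 to 6999228, held 7 larval and 5 adult peaks, of which 4 were shared. Besides the strong site in CG46458, shared sites lay within pb, a Hox gene of the mouthparts, with 3.22 in larvae and 3.86 in adults, and within Antp, the Hox gene of the thorax. The pair in Antp had 8.86 and 19.5 in larvae and 5.86 and 24.2 in adults. Larva-only peaks lay near Edg84A, a cuticle protein gene, with a fold of 12.4, near lncRNA:CR42721 with 2.48 and within CG46458 with 3.46. The adult-only peak was that at bcd.

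Members of 13 lists of genes with known roles were counted at CTCF sites, at shares near those over all protein-coding genes. Of 187 members 6 had an end within 500 bp of a shared larval peak and 4 of a larva-only peak, against 3.92% and 1.36% of the 13946 protein-coding genes. Near a shared adult peak were 5 and near an adult-only peak 2, against 3.6% and 0.523%. Among the members at shared sites, the ribosomal protein genes RpS26 and RpS7 had 68.6 and 102 in larvae and 67.3 and 139 in adults. The eggshell gene Vm32E had 26.8 in larvae and 10.9 in adults, and ftz-f1, a nuclear receptor of metamorphosis, had 23.2 and 13.6. Dup99B, a peptide of the male ejaculatory duct, lay at a larval peak of fold 51.0 whose adult partner was not within 500 bp of the gene.

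The CTCF gene itself lay 342 bp from a weak larva-only peak, with a fold of 2.46 at rank 680. Pc, the Polycomb protein, had a larva-only peak of fold 2.17 at rank 736, on a CP190 peak of fold 30.3 and on Pita peaks of fold 17.0 in larvae and 71.9 in adults. Asx, a Polycomb group protein, had one of fold 1.83 at rank 802, and mod(mdg4), which encodes insulator cofactors, had an adult-only peak of fold 2.23 at rank 626. The remaining one-stage members were nAChRalpha5 and bcd. No member of the lists of glue and serum proteins (12 genes), photoreceptor genes (15), muscle genes (17) or segment polarity genes (13) had an end within 500 bp of a CTCF peak of either stage. With 3.92% of all protein-coding genes that near a shared larval peak, lists of this size would hold few. The absence also depends on the distance. Act88F of the muscle list lay 614 bp from a shared larval peak of fold 123, whose adult partner had 98.4.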

How the data were processed

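ChIP-seq peak lists of whole larvae and adults were used as deposited. Per the submitters' processing notes, reads were handled on build dm6 with Bowtie2, MACS2, Picard, cutadapt, deepTools and bedtools, whose roles and versions are not given in the sources used here. Each of the 7 lists has 20 columns as an IDR run on 2 inputs writes them, and the samples behind the inputs are not named. The authors' deposited values used here are the fold enrichment, a linear ratio against a control without a name, the −log10 q and a score of reproducibility, the −log10 of the global IDR. The authors' deposited summit offset gave the summit position. The CP190 list names no genotype, and mutant larvae gave 14 of the 18 CP190 samples. Fold was used to describe and rank peaks within a list.

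Overlaps, ranks and intervals were computed with Python 3.11.15, pandas 2.3.3, numpy 2.4.6 and scipy 1.17.1, and the functions were checked on simulated data. Gene positions came from the RefSeq table of Release 6 plus ISO1 MT, which is also dm6, and 17807 genes lay on the chromosomes used. It gives no strand, so distances are to either end of a gene. A peak is named by the gene whose span holds its summit, the shortest and protein-coding first, or else by the nearest gene end. Named are one-stage peaks at ranks 1 to 60, the 10 shared sites with the smallest sum of ranks, the 5 with the largest shift of rank percentile each way, peaks of both Hox complexes, members of gene lists at one-stage peaks, and the CTCF gene. Of these, 1 site is not reported here. Of 188 list members 187 were found in the table, 1 of them through a synonym. Members and lists were chosen with earlier results of these data known. No genome sequence was used here, so a planned search for a CTCF sequence word was not run.

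Alternatives were an overlap of 0.5 of the shorter peak or more, summits up to 200 bp apart, only peaks whose −log10 q reached the median of the list, only the autosome arms, lists of equal length, and gene ends up to 200 or 1000 bp away.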

Additional observations from a re-analysis of the deposited data

Results flagged for a closer look

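The share of CTCF peaks on a Pita peak of the same stage differed between one-stage and shared peaks in opposite directions, by 11.9 points in larvae (one-stage higher) and by −10.9 points in adults (one-stage lower). Over all ranks each interval excludes 0, and the difference between the stages was not tested. Within the first adult quartile the shares were alike, 40.9% of one-stage and 39.0% of shared peaks. Within the last adult quartile the interval of the difference, −18.0 to 3.15 points, includes 0.

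On sequences outside the chromosomes compared there were 6 larval and 16 adult CTCF peaks, which enter no comparison.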

How the results depend on the processing

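No paired analysis was possible because each stage is 1 deposited list and the inputs behind it carry no replicate number. In all, 35 results were recomputed under 7 alternatives, and 142 of 179 recomputed values stayed inside the interval of the reported value. An overlap of 0.5 of the shorter peak or more and summits within 200 bp moved none.

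Keeping only peaks whose −log10 q reached the median moved 27 of 35. Both lists were cut and ranked anew before sharing was called, so a peak whose partner fell below the cut counts as one-stage here. Of the 404 larval peaks kept 98 were larva-only in this sense, and of the 337 adult peaks kept 29 were adult-only. These classes are thus not those of the full lists. Shared peaks became 75.7% of larval and 91.4% of adult peaks. The median rank percentile became 38.5 for shared larval, 52.4 for shared adult and 9.20 for adult-only peaks. Median widths became 1624.5 bp for shared larval, 909.5 bp for larva-only, 899.5 bp for shared adult and 888 bp for adult-only peaks. CP190 was at 87.9% of shared larval, 70.4% of larva-only and 87.3% of shared adult peaks. Pita was at 34.1% of shared adult and 37.9% of adult-only peaks. Su(Hw) was at 18.0% of shared larval, 16.3% of larva-only, 17.2% of shared adult and 13.8% of adult-only peaks. A gene end was near 76.8% of shared larval, 70.4% of larva-only and 73.7% of shared adult peaks. The summit was within a gene for 31.4% of shared larval, 37.8% of larva-only, 31.5% of shared adult and 48.3% of adult-only peaks. The X held 17.2% of adult-only peaks, and 51.0% of pairs were in the same quartile of rank.

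On autosome arms alone the median width of shared adult peaks was 691 bp. With lists of equal length, 79.2% of larval and 80.0% of adult peaks were shared, the median rank percentile of shared larval peaks was 40.3 and the median width of larva-only peaks was 535 bp. With gene ends within 200 bp the shares were 58.6% of shared larval, 45.3% of larva-only and 52.5% of shared adult peaks, and within 1000 bp they were 70.1% of shared larval and 67.6% of shared adult peaks. Apart from the fewer peaks kept, the cause of these moves was not tested. Depth is unknown, so no limit on missed sites could be set.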
